A study of Mus musculus with 4 samples.

Results

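The region described here is a 20-Mb stretch of mouse chromosome 2 (mm10), chr2:15000000-35000000, on either side of Pnpla7, the gene that was knocked out. Its members are CpGs, with the reads of both strands summed, and non-overlapping 1-kb tiles that lie outside Pnpla7 (24975990 to 25054072). A CpG needed at least 10 reads in every library, and a tile at least 3 such CpGs. By this rule the region held 22721 of the 1600691 nuclear CpGs of the series and 2194 of its 164026 tiles. The rest of chromosome 2, with 100324 CpGs and 10236 tiles, served for comparison, and 52 CpGs and 11 tiles of Pnpla7 itself were left out. CpGs just inside the read minimum (lowest library at 10 reads, 1433 CpGs) averaged 53.1% to 53.6% in the 4 libraries, and those just outside it (9 reads, 1461 CpGs) 51.6% to 52.8%.

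The data are reduced representation bisulfite sequencing of liver from C57BL6/N mice aged 6 weeks, with 2 libraries of genotype Pnpla7+/+ (WT) and 2 of genotype Pnpla7-/- (KO). The labels name no treatment, do not say how the allele was made, and leave unstated whether each library is a separate animal, so p-values carry at most the spread between these libraries. Median depth over the CpGs of the region was 22 and 26 reads in the WT libraries and 27 and 26 in the KO libraries, replicate 1 first. Elsewhere on the chromosome it was 21 to 24. A DNA methylation track holds no expression of marker genes, and the tissue label was not checked.

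Pnpla7 codes for an enzyme of lysophospholipid breakdown. DNA that lies close to a targeted gene is inherited together with it, so both sides of Pnpla7 are the part of the genome most tightly linked to the genotype. In mammals CpG-rich gene starts are usually free of methylation, while gene bodies and the DNA between genes are mostly methylated. Differences between adult tissues and states tend to sit at intermediate levels, often at enhancers.

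The promoters shown are those of 3 genes in or nearest to which CpGs or tiles passed the test (Ass1, Slc25a25, Ptgds) and of the 2 protein-coding genes whose promoters, with at least 3 analysed CpGs, differed most in each direction (Naif1 and Pkn3); they were picked after their values were seen. Each runs 5′ to 3′ from 250 bases before to 50 after the gene start, from RefSeq on GRCm38.p6 (the build mm10), and capitals mark the CpGs analysed. Slc25a25 has 3 such windows and the one nearest to its called tiles is given. Ass1 is at chr2:31470020-31470319 on the plus strand, Slc25a25 at chr2:32424017-32424316 on the minus strand, Ptgds at chr2:25469700-25469999 on the minus strand, Naif1 at chr2:32450207-32450506 on the plus strand and Pkn3 at chr2:30078448-30078747 on the plus strand.
Ass1: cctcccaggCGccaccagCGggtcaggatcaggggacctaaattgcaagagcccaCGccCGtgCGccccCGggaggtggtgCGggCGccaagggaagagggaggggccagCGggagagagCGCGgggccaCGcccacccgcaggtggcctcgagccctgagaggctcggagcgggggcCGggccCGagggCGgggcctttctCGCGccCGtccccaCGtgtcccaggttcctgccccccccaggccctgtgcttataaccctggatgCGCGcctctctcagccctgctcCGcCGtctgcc
Slc25a25: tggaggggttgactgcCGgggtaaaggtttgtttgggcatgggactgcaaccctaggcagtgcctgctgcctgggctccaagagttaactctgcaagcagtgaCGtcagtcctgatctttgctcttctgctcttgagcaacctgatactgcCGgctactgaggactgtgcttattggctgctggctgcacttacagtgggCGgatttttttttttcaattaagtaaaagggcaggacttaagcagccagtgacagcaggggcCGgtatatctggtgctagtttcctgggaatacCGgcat
Ptgds: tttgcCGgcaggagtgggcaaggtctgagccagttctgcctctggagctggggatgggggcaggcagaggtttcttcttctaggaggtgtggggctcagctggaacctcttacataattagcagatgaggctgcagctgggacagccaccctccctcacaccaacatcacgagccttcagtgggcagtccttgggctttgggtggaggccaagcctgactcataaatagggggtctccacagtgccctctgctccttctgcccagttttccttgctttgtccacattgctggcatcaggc
Naif1: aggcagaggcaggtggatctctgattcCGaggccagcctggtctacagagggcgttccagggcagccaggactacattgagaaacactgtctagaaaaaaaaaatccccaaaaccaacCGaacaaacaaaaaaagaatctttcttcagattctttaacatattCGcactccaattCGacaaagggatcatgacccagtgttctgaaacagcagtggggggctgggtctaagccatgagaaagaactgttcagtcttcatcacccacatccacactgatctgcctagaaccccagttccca
Pkn3: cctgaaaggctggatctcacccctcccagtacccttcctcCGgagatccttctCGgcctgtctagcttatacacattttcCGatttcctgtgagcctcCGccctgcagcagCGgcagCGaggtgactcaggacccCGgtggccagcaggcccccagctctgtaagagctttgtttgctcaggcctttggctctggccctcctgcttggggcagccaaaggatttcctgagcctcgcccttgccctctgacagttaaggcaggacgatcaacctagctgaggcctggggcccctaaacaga

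These windows differ in how much of them the assay could read. Ass1 holds 27 CpGs, of which 23 were analysed, and Ptgds holds 2, of which 1 was analysed. The library preparation cuts at CCGG (MspI) and TCGA (TaqI), motifs that read the same on both strands and share no CpG. CCGG occurred in 61.7% of the 444 promoter windows of the region, Pnpla7 included, and in 52.8% of all 32851 windows of the same length in the table, and TCGA in 22.1% and 22%. The 23 analysed CpGs of Ass1 measured, with their reads summed, 0% and 0.374% in WT and 1.04% and 0.903% in KO (replicate 1 before replicate 2, here and in what follows), and the 6 of Slc25a25 1.08% and 0.348% in WT and 0.855% and 0.325% in KO. Both windows were thus nearly free of methylation in every library. The 1 analysed CpG of the Ptgds window measured 50% and 27.3% in WT and 41.7% and 46.2% in KO on 12 to 22 reads, so there the genotypes overlapped. The Naif1 window, with 4 analysed CpGs, was intermediate, at 58.4% and 61.5% in WT and 64.8% and 68.5% in KO, and the Pkn3 window, with 7, measured 47.1% and 52.9% in WT and 38.5% and 45.5% in KO. In both the genotypes did not overlap, and neither difference (6.66 and -7.97 percentage points) was tested at the window itself.

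Tiles were compared between the genotypes with a quasi-binomial model fitted over all tiles of the genome, and a tile was called at a Benjamini-Hochberg adjusted p under 0.05 with a difference of at least 10 percentage points. Of 2192 tiles tested in the region, 7 were called, which is 0.319% of them, beside 0.0686% (7 of 10207) on the rest of chromosome 2 and 0.146% (236 of 161407) in the genome outside the region and Pnpla7; these shares were not tested against each other. The number of calls depends on the model. With limma on log2 ratios 0 of 163610 tiles were called in the whole genome, and so 0 of the 2192 here (127 at an unadjusted p under 0.05). Giving every tile the same residual degrees of freedom called 6 in the region, all among the 7, and 143 in place of 244 in the whole genome. Higher in KO were 6 of the 7, or 0.274% of the tiles (0.049% on the rest of the chromosome, 0.105% in the genome elsewhere), and 1 was lower, or 0.0456% (0.0196% and 0.0415%). All 7 lay on the end side of Pnpla7, from 25 to 35 Mb, where 1832 tiles were tested (0.382%), and 0 of 360 on the start side. On the start side 21 of 360 tiles, or 5.83%, had an unadjusted p under 0.05 in this model, against 158 of 1832, or 8.62%, on the end side, and the share was 8.17% in the region as a whole, 5.64% elsewhere on chromosome 2 and 6.41% over the genome outside the region. The called tiles had intermediate levels, as did 606 of the tested tiles of the region with a mean of 20% to 80% (7 called, 1.16%) and 2862 such tiles on the rest of the chromosome (6 called, 0.21%).

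**Figure D1:**
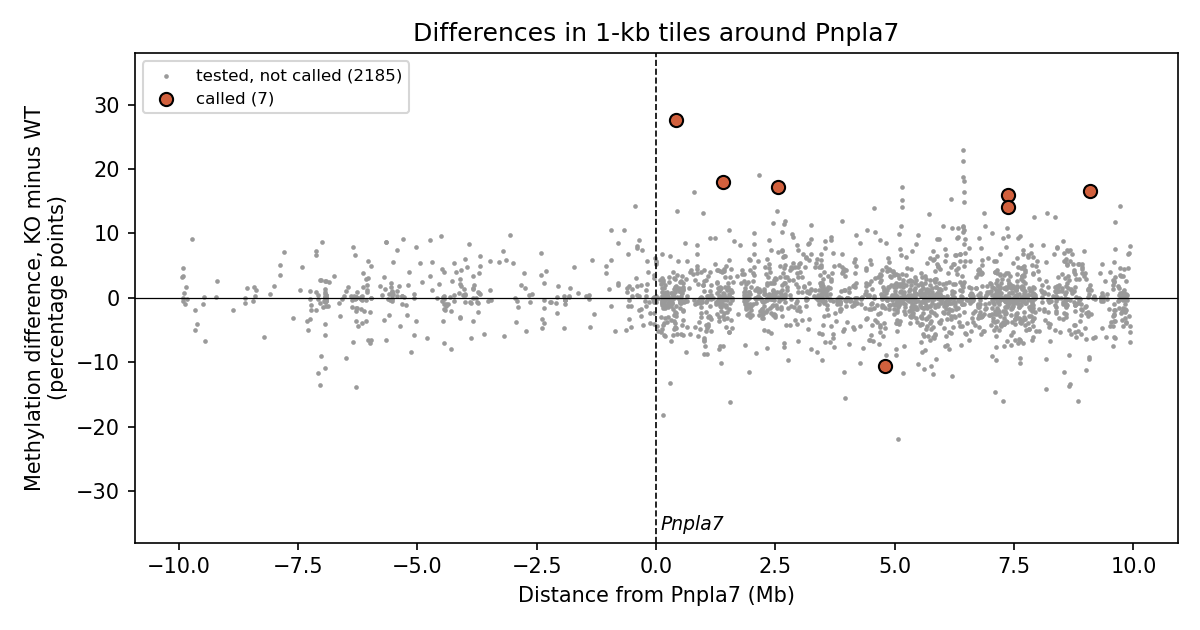
Each point is one of the 2192 tested 1-kb tiles, placed by its distance from Pnpla7 (Mb, start side negative) and by its methylation difference, KO minus WT, in percentage points. The 7 called tiles, in colour, all lie on the end side, 6 above and 1 below 0.

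Called tiles were deeply read, with a median of 339 reads per library against 127 over the tested tiles of the region and 109 over those on the rest of the chromosome. Depth moved with the calls, and its part in the difference between the areas was not tested. With a minimum of 20 reads at each CpG, 8 of 1035 tiles were called in the region (0.773%) and 5 of 4048 on the rest of the chromosome (0.124%). Tiles whose KO libraries both lay above both WT libraries, with a mean difference of at least 10 points, numbered 49 of 2192 (2.24%) in the region, 248 of 10207 (2.43%) elsewhere on chromosome 2 and 3909 of 161407 (2.42%) over the genome outside the region. In the opposite direction there were 29 (1.32%), 98 (0.96%) and 1894 (1.17%). By this count, which uses no model, the share of the region in the upward direction was near that of the other areas.

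The called tile closest to Pnpla7 lies at chr2:25465001-25466000, 709 bp beyond the 3′ end of Ptgds, which codes for a prostaglandin D synthase of the lipocalin family. Its 6 CpGs together measured 36.6% and 24.6% in WT and 57.7% and 58.5% in KO. Both KO libraries lay above both WT libraries, and the tile rose by 27.5 percentage points, the largest difference among the 7 (adjusted p = 0.000102, quasi-likelihood F test). All 6 CpGs were higher in KO, by 17.8 to 39.2 points, and 5 of them without overlap. The tile was called on the summed reads of these same CpGs, so their agreement is no separate support. The same holds for the CpG counts of the other called tiles, and no such count was made over all CpGs. Without WT replicate 2 the difference was 21.5 points and the call was lost (adjusted p = 0.0575, same model).

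A pair of neighbouring called tiles, chr2:32416001-32417000 and chr2:32417001-32418000, lies in Slc25a25, the gene of a calcium-regulated carrier that moves adenine nucleotides across the inner mitochondrial membrane. The left tile measured 69.6% and 64.4% in WT and 84.6% and 81.3% in KO. The right tile measured 38.3% and 33.5% in WT and 52.6% and 47.5% in KO. In both tiles the genotypes did not overlap, and they rose by 16 and 14.2 points (adjusted p = 0.0065 and 0.00212, quasi-likelihood F test). They lie 7.57 and 6.57 kb inside the gene from the nearest of its starts, the unmethylated Slc25a25 window printed above. In the left tile 5 of 6 CpGs were higher in KO, and in the right tile 10 of 11. The CpG with the largest fall in the right tile was 13.2 points lower. Without KO replicate 1 or WT replicate 2 neither tile was called, at differences of 14.4 and 13.4 points in the left tile and 11.6 and 11.8 in the right one.

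The called tile farthest from Pnpla7, chr2:34147001-34148000, lies in no annotated gene, 23457 bp from the nearest end of Pbx3, which codes for a homeodomain transcription factor of the TALE class. Its 12 CpGs measured 63.7% and 61% in WT and 80.4% and 77.5% in KO. This was a rise of 16.6 points with no overlap (adjusted p = 0.000629, quasi-likelihood F test). It was the only tile of the 7 that was called whichever library was left out, at 15.2 to 18.1 points. The difference was not even along the tile. The first 4 CpGs, from 34147476 to 34147508, were 30.1 to 46.1 points higher in KO, and the other 8 differed by -1.14 to 19.5 points.

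Notch1, the gene of a receptor in cell-fate signalling that is prominent in endothelium and bile duct formation, held a called tile at chr2:26460001-26461000, 2.1 kb from the annotated end of the gene and 43.3 kb from its start. The tile measured 55.8% and 71.8% in WT and 84.1% and 79.3% in KO. The WT libraries lay far apart but did not overlap the KO libraries, and the tile rose by 17.9 points (adjusted p = 0.00392, quasi-likelihood F test). All 10 CpGs were higher in KO, by 0.412 to 32.2 points. The call was lost without WT replicate 1, at 9.89 points, and without KO replicate 1, at 15.5 points. The Notch1 promoter window was unmethylated, at 0% and 0.481% in WT and 1.27% and 0.778% in KO.

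The tile at chr2:27598001-27599000 lies between genes, 13348 bp from the gene Gm52506. It measured 56.6% and 59.9% in WT and 78.2% and 72.7% in KO. It rose by 17.2 points with no overlap (adjusted p = 0.0232, quasi-likelihood F test), a call that the same residual degrees of freedom for every tile ended (adjusted p = 0.0618). Of the 4 fits that left out 1 library, only the one without KO replicate 2 called it. A prior for the spread taken from tiles with enough binomial variance also lost it (adjusted p = 0.0781, same F test). The differences without WT replicates 1 and 2 and KO replicate 1 were 15.5, 18.9 and 14.5 points.

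The 1 tile that fell was in Cercam, at chr2:29846001-29847000, 0.907 kb from the annotated left end of this gene, which codes for a protein related to collagen glycosyltransferases. It was also the most CpG-rich of the 7, with 36 CpGs. It measured 46.7% and 44.8% in WT and 35.6% and 34.7% in KO. Both KO libraries lay below both WT libraries, and the tile fell by 10.6 points (adjusted p = 0.00202, quasi-likelihood F test). Of its CpGs, 33 of 36 were lower in KO, 19 of them without overlap. Without WT replicate 1 the difference was -9.67 points and the call was lost (adjusted p = 0.0549, same model).

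**Figure D2:**
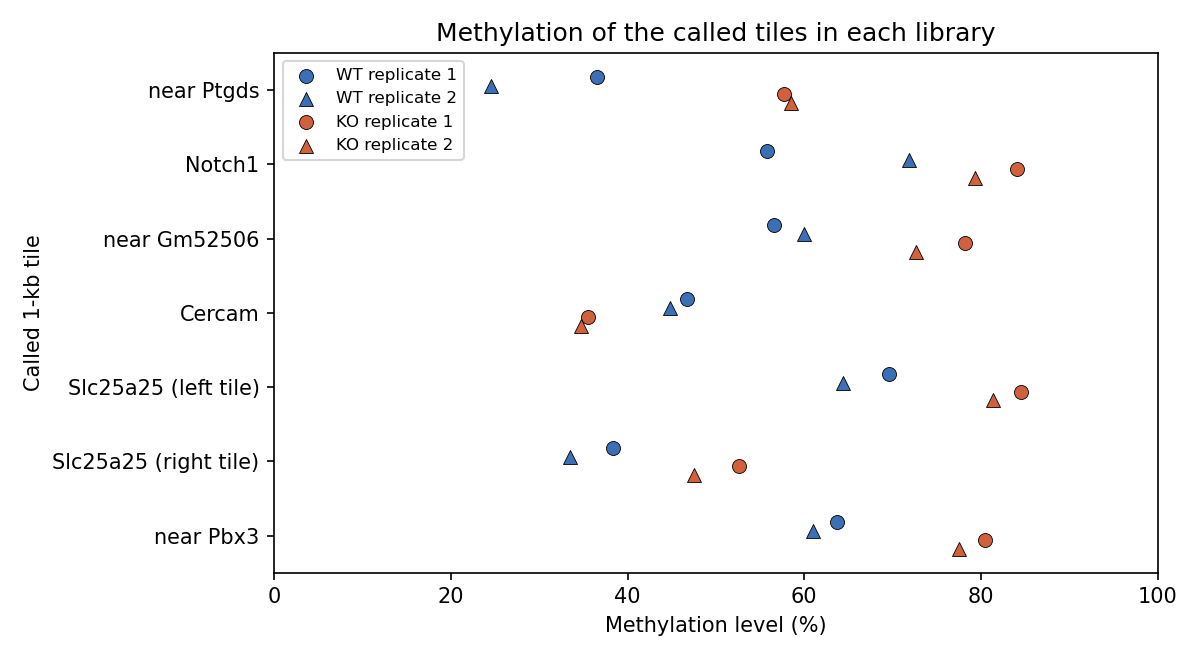
Methylation level (%) of the 7 called tiles in each library, with WT in blue, KO in orange, and the replicate shown by the symbol. In every tile both KO libraries lie on one side of both WT libraries, and in Notch1 the 2 WT libraries stand far apart, at 55.8% and 71.8%.

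Of 17298 single CpGs tested in the region, 8 were called and all 8 were higher in KO. That is 0.0462%, beside 0.00634% (5 of 78817) on the rest of the chromosome and 0.0401% (500 of 1246626) in the genome outside the region and Pnpla7. At this level every CpG had the same dispersion, so these p-values reflect the reads and not how far the libraries of a genotype lay apart at that CpG. The CpG calls rest on one choice in the model, that a genotype at 0% or 100% in all its libraries adds no residual degrees of freedom. With the same degrees of freedom for every CpG, 0 of the 8 were called (adjusted p = 0.743 for each, quasi-likelihood F test), 684 CpGs of the region had an unadjusted p under 0.05, and 9 in place of 509 CpGs were called in the whole genome. In a region narrowed to 20 to 30 Mb the share called was 1 of 7942 CpGs (0.0126%), beside 12 of 88173 (0.0136%) on the rest of the chromosome. Of the 8, 6 lie in the called tiles and repeat their result. The Pbx3 tile held 3 of them, of which the CpG at 34147500 measured 32.3% and 52.8% in WT and 90.5% and 86.8% in KO, a rise of 46.1 points (adjusted p = 4.83e-05, quasi-likelihood F test). The Slc25a25 tiles held 2, at 32416423 (44.1% and 40.2% in WT, 74.7% and 67.8% in KO) and 32417381 (37.7% and 36.4%, 65.6% and 62.4%). The tile by Ptgds held 1, at 25465848 (29.6% and 18.8% in WT, 54.7% and 56.1% in KO). With the other prior the CpG at 34147500 alone remained called (adjusted p = 0.0376, same F test), leaving out 1 library left 0 or 1 of the 8, and limma on log2 ratios called 0.

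The other 2 called CpGs lie in Ass1, the gene of argininosuccinate synthase, which joins citrulline and aspartate in the urea cycle and is abundant in hepatocytes. The CpG at 31476177 measured 26.5% and 28.4% in WT and 66.1% and 48.2% in KO. The CpG at 31511721 measured 71.4% and 60.7% in WT and 100% and 90% in KO. They lie 5.91 and 41.5 kb from the gene start, and they rose by 29.7 and 28.9 points (adjusted p = 0.0196 and 0.0338, quasi-likelihood F test), with the same dependence on the model.

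Ass1 (31470270 to 31520670) was also the gene whose tiles together were highest in KO relative to WT, although none of its tiles was called. Of 158 genes of the region with at least 5 tested tiles it had the largest mean difference, and among the 635 such genes on the rest of the chromosome the highest mean difference was 8.19 points (Slc38a11); Ass1 was singled out after these values were seen. Averaged over its 22 tiles, the level was 50.7% and 50.8% in WT and 63.9% and 55.2% in KO. Both KO libraries lay above the WT libraries, by a mean of 8.76 points (exact permutation test, two-sided, p = 0.333, the smallest that 2 libraries against 2 allow). Such a lack of overlap was common. Both KO libraries lay above in 29 and below in 31 of the 158 genes, and in 152 and 93 of the 635 on the rest of the chromosome. Of the 22 tiles, 19 were higher in KO and 11 had an unadjusted p under 0.05 in the quasi-likelihood F test, all 11 higher in KO. Among all 2192 tested tiles of the region 1134 (51.7%) were higher in KO, and 179 (8.17%) had such a p. Because Ass1 was picked for its mean difference, its tile counts are no separate support. The smallest adjusted p was 0.114, at chr2:31476001-31477000, where WT measured 40% and 37.4% and KO 72.6% and 50.6%. KO replicate 1 lay above KO replicate 2 in 19 of the 22 tiles. KO replicate 2 lay above both WT libraries in 13 tiles and KO replicate 1 in 20. These counts by library were not made over all tiles of the region. Without KO replicate 1 the mean difference was 4.37 points, and without KO replicate 2 it was 13.1 points.

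Along Ass1 the level was lowest at the gene start and higher in the gene body in every library. The tile over the gene start, with 46 CpGs, measured 0.509% and 0.286% in WT and 0.512% and 0.553% in KO. Of the 4 tiles that begin 2.73 to 6.73 kb into the gene, 3 differed by 18.8 to 22.9 points, and the other (31474001 to 31475000) by 1.68 points. Farther in, a tile at 31503001 measured 66.4% and 47.6% in WT and 81.2% and 65.6% in KO, so that here KO replicate 2 overlapped the WT libraries. The most methylated tile, 31512001 to 31513000, measured 84.1% and 91.4% in WT and 86.5% and 87.2% in KO, so that the genotypes overlapped, while at 31500001 (84.4% and 79.4%, 85.3% and 88.2%) they did not.

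**Figure D3:**
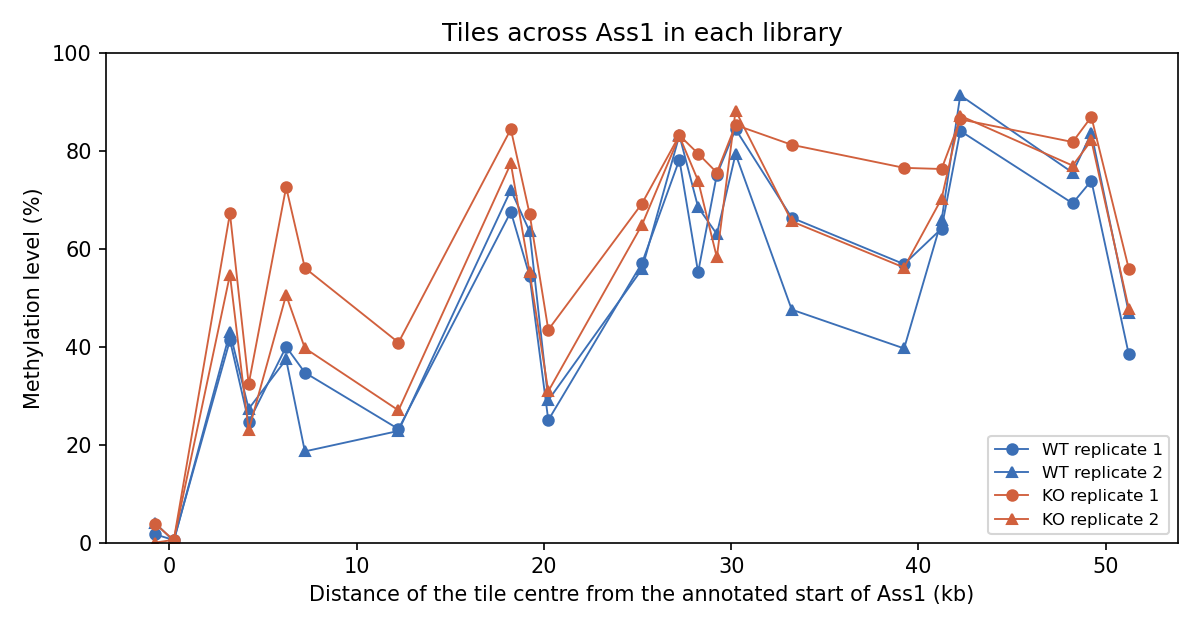
Methylation level (%) of the 22 tested tiles of Ass1 in each library against the distance of the tile centre from the annotated gene start (kb). KO replicate 1 is the highest library in most tiles of intermediate level, and without it the mean difference over the tiles is 4.37 points in place of 8.76.

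Next to Pnpla7 itself, none of the 5 tiles nearest on each side was called. On the start side, the tile at 24974001 in Mrpl41, a mitochondrial ribosomal protein gene, measured 2.24% and 1.21% in WT and 0.991% and 1.13% in KO over 22 CpGs. A tile at 24967001 in Dph7, a gene of diphthamide synthesis, measured 92.3% and 91.1% in WT and 96.8% and 98% in KO. A second tile of Dph7 was at 0.518% or below in every library, and both tiles of Zmynd19 at 87.7% or above. On the end side, tiles at 25055001 and 25061001 in Nsmf, which codes for a neuronal signalling protein, measured 83.7% and 78.5% in WT against 84.2% and 89.2% in KO, and 79.1% and 82.8% against 85.4% and 86.9%. The KO libraries were higher in both, by 5.57 and 5.23 points, and neither passed the test (adjusted p = 0.758 and 0.773, quasi-likelihood F test). The other 3 nearest tiles, 1 in Gm39770 and 2 in Noxa1, an activator of NADPH oxidase, had adjusted p of 0.869 or above in that test. Among the 27 protein-coding genes within 250 kb of Pnpla7, 0 of 76 tiles were called and 12 had an unadjusted p under 0.05, beside 7 (0.319%) and 179 (8.17%) of all 2192 tested tiles of the region. The median difference was -0.155 points, beside 0.0711 over those tiles. The tile with the smallest p among them lies in Tor4a, a gene of the torsin family of ATPases, and measured 37.2% and 29.7% in WT and 20.4% and 10.1% in KO (adjusted p = 0.334, quasi-likelihood F test).

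A tile of 46 CpGs in Gtf3c5 (28582001 to 28583000), the gene of a subunit of the RNA polymerase III factor TFIIIC, measured 28.7% and 25.8% in WT and 19.7% and 21% in KO. The genotypes did not overlap, and the tile passed the adjusted p but not the required size, at -6.83 points (adjusted p = 0.00539, quasi-likelihood F test). Of the tiles that differed by at least 10 points and were not called, 4 had the smallest p-values. A tile in Sardh (27206001 to 27207000), the gene of the mitochondrial enzyme that demethylates sarcosine, measured 49.6% and 48.1% in WT and 71.4% and 64.5% in KO (adjusted p = 0.0504, quasi-likelihood F test). A tile at 32318001 in Dnm1, which codes for a dynamin of synaptic vesicle recycling and overlaps Mir199b, measured 33.8% and 43.2% in WT and 22.8% and 22.1% in KO (adjusted p = 0.0527, same F test). An intergenic tile at 30214001 measured 74.1% and 68.4% in WT and 86.5% and 90.4% in KO, and one in Ntmt1, a gene of a protein N-terminal methyltransferase, 31.4% and 32.8% in WT and 21.1% and 21.9% in KO (adjusted p = 0.0541 and 0.0699, same F test). In each of these 4 tiles the genotypes did not overlap. Among tiles that each library covered with 20 reads or more, the largest differences that missed the threshold were 22.9 and 21.2 points in Ass1 and 19.1 in Sardh, and, downward, -21.9 in Zer1, -18.2 in Tor4a and -16.2 in Egfl7. The Egfl7 tile overlaps the endothelial microRNA genes Mir126a and Mir126b, and measured 78% and 70% in WT and 60% and 55.6% in KO on 30 to 45 reads.

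The gene lists are described by their counts, to be read beside those over all tested tiles of the region (0.319% called, 8.17% with an unadjusted p under 0.05, median 0.0711 points). Genes of metabolism were followed through 2 lists. Of the lipid and isoprenoid list, 153 tiles of 23 genes were tested and 1 was called, the tile by Ptgds. An unadjusted p under 0.05 was found in 10 of the 153, and the median difference was 0.122 points. In Dolk, the dolichol kinase gene, a tile measured 7.56% and 6.79% in WT and 13.9% and 13% in KO. In Angptl2, which codes for a secreted angiopoietin-like protein, one measured 59.7% and 58.5% against 47.5% and 42.3%. In Rxra, the gene of the nuclear receptor partner RXR alpha, one measured 62.5% and 48% against 73.9% and 60.5%, so that the genotypes overlapped. None of the 3 passed the test (adjusted p = 0.14 to 0.239, quasi-likelihood F test).

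The list of one-carbon, amino acid and urea cycle genes (Sardh, Fpgs, Ass1, Kyat1 and Dbh) had 51 tiles, of which 0 were called and 16 had an unadjusted p under 0.05, 11 of the 16 in Ass1. Among all tested tiles of the region 179 of 2192, or 8.17%, had one. The median difference of the list was 1.65 points and 34 of 51 tiles were higher in KO, 19 of them in Ass1. Among all tested tiles of the region 1134 of 2192, or 51.7%, were higher in KO. Kyat1, the gene of a kynurenine aminotransferase, averaged 62.9% and 61.8% over its 8 tiles in WT and 67.5% and 68.7% in KO. Its tile with the smallest p measured 78.5% and 75.8% in WT and 90.9% and 85.7% in KO (adjusted p = 0.243, quasi-likelihood F test). In the liver secretion and transport list 0 of 38 tiles were called, 2 had an unadjusted p under 0.05, and the median difference was -0.202 points. Its smallest p belonged to a tile counted under Adamts13, the von Willebrand factor protease gene (adjusted p = 0.421, quasi-likelihood F test). This tile, 27009001 to 27010000, measured 0% in each WT library and 1.72% and 0.218% in KO. Adamts13 ends inside it, at 27009625, and 17 of its 22 CpGs lie in the promoter window of Cacfd1 (27009676 to 27009975). That window measured 0% in each WT library and 2.16% and 0.293% in KO. Tiles of Slc2a6, a glucose transporter family gene, and C8g, a complement component gene, differed by 5.92 and 5.78 points and did not pass.

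Regulators of development had 1 of 131 tiles called, in Notch1, beside 0.319% over the region, and 11 with an unadjusted p under 0.05, beside 8.17%, with a median difference of -0.164 points. A tile of Bmi1, a Polycomb repressor gene, measured 43.3% and 37.8% in WT and 19% and 34.4% in KO, and one in Nacc2 62.9% and 57.3% against 50.1% and 59.6%. The CpG-rich tile of Pbx3, with 66 CpGs, was at 0.852% or below in every library. In the endothelial, stellate and matrix list 1 of 78 tiles was called, again in Notch1, and 11 had an unadjusted p under 0.05. Col5a1, a fibrillar collagen gene, had a tile at 83.5% and 81.9% in WT and 90.9% and 93.3% in KO, and Eng, the gene of the endothelial receptor endoglin, one at 86.4% and 83% in WT and 81.1% and 74.9% in KO. The leukocyte list had 0 of 87 tiles called and 4 with an unadjusted p under 0.05. Its smallest p was in Vav2, a gene of a signalling exchange factor, at 77.9% and 74.6% in WT and 83.4% and 79.6% in KO, and tiles of Card9 and Abl1 were at 4.88% or below in every library. None of the tiles of Bmi1, Nacc2, Pbx3, Col5a1, Eng, Vav2, Card9 and Abl1 named here passed the test (adjusted p = 0.368 to 0.714, quasi-likelihood F test).

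In the list of endoplasmic reticulum folding and secretion 0 of 30 tiles were called and 4 had an unadjusted p under 0.05. A tile in Hspa5, the gene of the chaperone BiP, measured 37.2% and 41.8% in WT and 54.3% and 53% in KO, and one in Man1b1, an ER mannosidase gene, 93.7% and 98.7% against 84.5% and 81.5%. Neither passed the test (adjusted p = 0.271 and 0.29, quasi-likelihood F test). In the neuronal list 0 of 82 tiles were called, with the Dnm1 tile closest, and 11 had an unadjusted p under 0.05. A tile of Olfm1, the gene of a secreted olfactomedin protein, measured 85.6% and 84.4% in WT and 93.8% and 92.9% in KO (adjusted p = 0.435, quasi-likelihood F test). Median differences were 0.163 points in the leukocyte list, 0.141 in the endothelial list, -0.0395 in the folding list and 0.333 in the neuronal list.

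Promoter windows of the region were mostly unmethylated and similar in the genotypes. Of 443 windows, 196 held at least 3 analysed CpGs, and 181 of these averaged below 20%, 9 from 20% to 80% and 6 above 80%. No window differed by 10 points or more, and differences ran from -8.44 to 6.66 points with a median of 0.0194. On the rest of the chromosome 8 of 783 windows did, 4 in each direction. The lowest difference belonged to the non-coding gene Gm39793, at 86.6% and 90% in WT and 80.3% and 79.4% in KO. No called tile or CpG overlapped a promoter window.

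Averaged over all 22721 CpGs, the region was at 39% and 38.6% in WT and at 39% and 39.1% in KO. The mean was 38.8% ± 0.24 for WT and 39.05% ± 0.00766 for KO (SD, n = 2 each), so that KO was 0.238 points higher. The rest of the chromosome was more methylated, with means of 43.4% ± 0.171 for WT and 43.7% ± 0.0321 for KO (SD, n = 2 each), which differ by 0.337 points. The region minus the rest of the chromosome was -4.52 and -4.62 points in the WT libraries and -4.65 and -4.68 in the KO libraries. The 2 contrasts gave an exact permutation p of 0.333 each (two-sided), the smallest the design allows, and the change of the region relative to the chromosome was -0.0983 points. Weighting CpGs by reads turned both, to -0.378 and 0.214 points, with overlapping libraries.

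The region and the rest of the chromosome differed in makeup. CpGs within 1 kb of a gene start made up 40.1% of its CpGs, beside 34.6% for the rest of the chromosome, and CpGs outside genes 15.6% against 20.8%. Within 1 kb of gene starts the region measured 5.95% and 5.91% in WT and 5.86% and 5.78% in KO. Inside genes it measured 60.9% and 60.4% in WT and 61.1% and 61% in KO, and outside genes 61.8% and 61.1% in WT and 61.9% and 62.2% in KO. Among CpGs of intermediate level (20% to 80%), those outside genes measured 59.6% and 58.1% in WT and 60.5% and 61% in KO, a difference of 1.89 points in the region and also 1.89 points on the rest of the chromosome. Those near gene starts measured 52.3% and 51.4% in WT and 50% and 50.3% in KO, a difference of -1.64 points beside -0.17 on the rest of the chromosome. The difference of these 2 contrasts, -1.47 points, had p = 0.333 in the exact permutation test (two-sided), again the smallest possible.

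**Figure D4:**
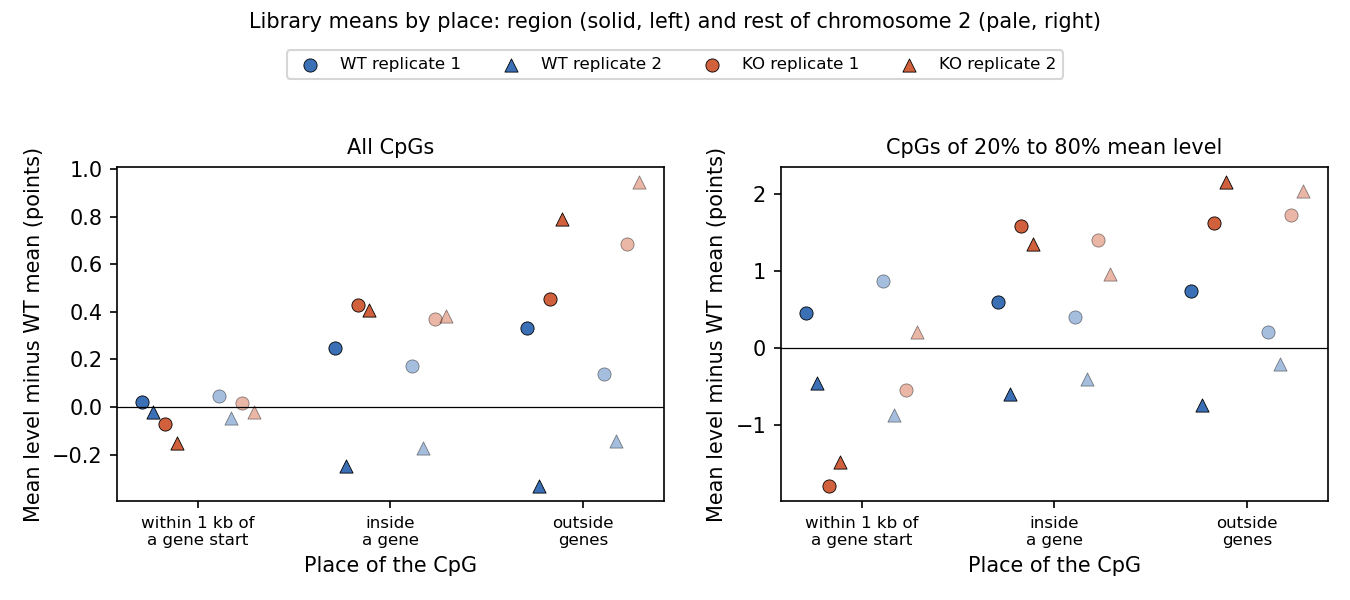
Mean level of each library minus the WT mean (percentage points) for CpGs near gene starts, inside genes and outside genes, over all CpGs and over CpGs of 20% to 80% mean level. Solid symbols are the region and pale ones the rest of chromosome 2; inside genes and outside them both KO libraries sit above both WT libraries in both areas.

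Along the region, KO was higher than WT in 15 of 20 windows of 1 Mb, with differences from -0.191 to 1.31 points and a median of 0.3, beside 111 of 131 windows with at least 100 CpGs and a median of 0.314 on the rest of the chromosome. In 10 of the 20 windows both KO libraries lay above both WT libraries. This count was not made for windows on the rest of the chromosome, where the mean over all CpGs also put both KO libraries above both WT libraries. The window that begins at 21 Mb had the highest difference, at 66.2% and 65.2% in WT and 67.1% and 66.9% in KO over 232 CpGs. The window from 24 to 25 Mb, which runs up to Pnpla7, measured 34.3% and 34.4% in WT and 35.3% and 35% in KO, and the next one, from 25 to 26 Mb, 29.9% and 29.5% in WT and 29.4% and 29.7% in KO.

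**Figure D5:**
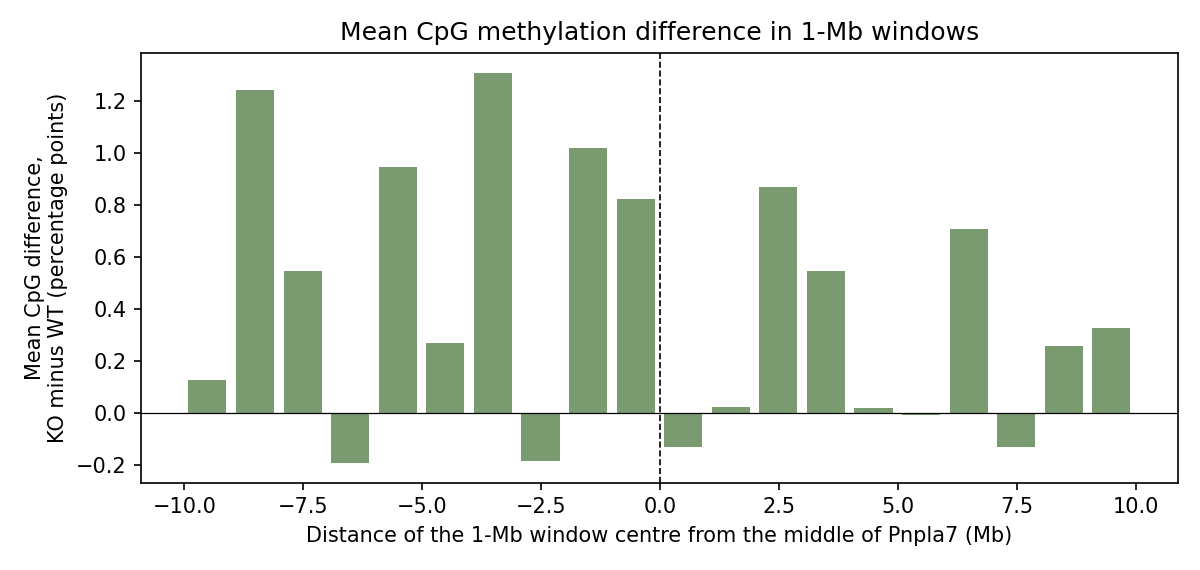
Mean CpG methylation difference, KO minus WT (percentage points), in the 20 windows of 1 Mb, by the distance of their centre from the middle of Pnpla7 (Mb). Differences run from -0.191 to 1.31 points, and windows below 0 occur on both sides of the dashed line at Pnpla7.

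CpGs with opposite levels in the genotypes were looked for next. Among 30873 CpGs of the region that every library covered with 5 or more reads, 0 were at or below 10% in both libraries of one genotype and at or above 70% in both of the other. The count was 0 of 146701 on the rest of chromosome 2 and 36 of 2174814 on the other chromosomes, all 36 high in KO. At looser limits of 20% and 60% it was 0 on chromosome 2, in the region and outside it, and 97 high in KO and 18 high in WT elsewhere. These counts need all 4 libraries. With WT replicate 1 left out 1 of 32142 CpGs of the region met the limits of 10% and 70%, beside 1 of 153369 on the rest of the chromosome. At 20% and 60%, leaving out 1 library left 31368 to 32142 CpGs of the region. Of these, 4 to 9 were high in KO and 2 to 6 high in WT. On the rest of the chromosome these counts were 13 to 68 and 10 to 41, among 149918 to 153369 CpGs. CpGs read in one genotype alone were absent too. Of 24326 CpGs of the region with at least 10 reads in both WT libraries 0 were unlisted in both KO libraries, and of 25677 with at least 10 reads in both KO libraries 0 were unlisted in both WT libraries. On the rest of the chromosome these counts were 12 of 110228 and 9 of 115696.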

How the data were processed

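DNA methylation in the liver of 2 WT and 2 KO libraries was read from the authors' deposited tracks, a level track and a depth track per library on mm10, made with GBSA per the file headers. In both tracks a minus sign marks cytosines of the reverse strand. In the level track values are a fraction of methylated reads, and in the depth track read counts, per the file headers and the values. BWA 0.7.12 and MACS appear without a role in the submitters' processing notes, and the sources used here give no further step. The libraries held 50413170 to 60535892 reads over cytosines. Level times depth was whole at 100% of positions (tolerance 1e-06 per read), and strands were summed per CpG. A CpG with 5 of 10 reads methylated has a 95% Clopper-Pearson (exact) interval of 18.7% to 81.3%, and 0 of 10 allows a level of 30%, for counting error only.

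Features were fitted over the whole nuclear genome with a quasi-binomial model in R 4.3.3. Its Pearson dispersion was shrunk with limma 3.58.1 and held at 1 or above, and a genotype at 0% or 100% in all its libraries gave no residual degrees of freedom. This last rule was settled with the counts of calls under both versions known, and the version without it was added as an alternative after seeing the data. A two-sided quasi-likelihood F test with Benjamini-Hochberg adjustment over all features followed, and a feature whose reads were all methylated or all unmethylated was left untested. The code was tested on simulated reads. Means were compared with exact permutation tests. Genes came from the RefSeq tables on GRCm38.p6, and a tile belonged to a gene within 1 kb of it. Python 3.11.15, pandas 2.3.3 and matplotlib 3.10.9 were also used.

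The members, lists and tests were chosen with earlier results of these data known. Named are the called tiles and CpGs, the 5 tiles nearest to each end of Pnpla7, the called genes of each list with up to 3 more by smallest p, and up to 3 tiles in each direction that missed the threshold. Promoters, Ass1 as a whole, the sides of Pnpla7 and the 5 tiles next to the threshold (Gtf3c5 included) were added after values were seen. Alternatives covered read minimums, size of difference, tests, prior, tile shape, a block for the replicate number and leaving out each library.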

Additional observations from a re-analysis of the deposited data

How the results depend on the processing

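Most of the 14 alternatives run on the same called tile change the p-value and leave its difference as it is, so direction could not turn in them. Leaving out 1 library could not turn it either, because both KO libraries lay on one side of both WT libraries. Minimums of 5 and 20 reads could turn it only where they changed which CpGs of a tile were counted. The tile by Ptgds kept the same difference at both (27.5 points), so it could not turn. Both Slc25a25 tiles and the tile at 27598001 likewise kept theirs at the minimum of 5 reads. Where the difference did change, the direction stayed. The count of called tiles in the region is given here with its share and, after it, the share on the rest of the chromosome. It was 1 of 2192 at a difference of 20 points (0.0456%, 0.0098%) and 4 of 985 in a region of 20 to 30 Mb (0.406%, 0.0876%). Fisher's exact test on summed reads gave 27 of 2192 (1.23%, 0.549%), and a minimum of 5 reads 11 of 3051 (0.361%, 0.107%). At least 1 CpG per tile gave 14 of 3770 (0.371%, 0.137%), and tiles shifted by 500 bp 4 of 2208 (0.181%, 0.069%). With limma on log2 ratios it was 0, and 0 of 163610 tiles were called in the whole genome. In that test adjusted p was 0.894 or above for each of the 7. Of the 2192 tiles, 127 had an unadjusted p under 0.05 (179 in the quasi-binomial model). Leaving out 1 library gave 3 to 11. The count of called CpGs was 1 of 7942 in a region of 20 to 30 Mb (12 of 88173 on the rest of the chromosome). With the other prior it was 1 of 17298 (0 of 78817 on the rest of the chromosome). It was 0 in both areas with limma on log2 ratios (866 of 17298 in the region at an unadjusted p under 0.05). The same residual degrees of freedom for every CpG, added after seeing the data, also gave 0 in both areas. The cause of these changes was not tested, except that a narrower region, a larger difference and more or fewer CpGs per tile change what can be called.

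The labels do not say whether libraries of the same replicate number were handled together. The difference between replicates 1 and 2 of WT and that of KO had a correlation of -0.0102 over 45320 tiles of intermediate level. Such a correlation cannot settle whether they were. With the replicate block, 14 of 2192 tiles (0.639%) and 18 of 17298 CpGs (0.104%) of the region were called. On the rest of the chromosome 20 of 10207 tiles (0.196%) and 25 of 78817 CpGs (0.0317%) were called. The mean differences were by construction as without the block (0.238 and -0.0983 points). Weighted by reads, the mean difference of the region was -0.378 points and that relative to the rest of the chromosome 0.214; other settings kept their direction. Leaving out 1 library gave 0.0685 to 0.408 and -0.147 to -0.0497 points. The count of CpGs with opposite levels, at limits of 10% and 70%, was 0 to 1 with 1 library left out, and the 1 came without WT replicate 1. Depth limits single CpGs, with a wide counting interval at 10 reads.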
